A study of Mus musculus with 12 samples.

Results

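The genes described here produce, release, receive and read out transforming growth factor beta (TGF-β): the ligand Tgfb1, the integrin subunits Itgb8 and Itgav, the receptors Tgfbr1 and Tgfbr2, the signal carrier Smad3, the inhibitors Smad7 and Ski, and the target Tgfbi. They were chosen by name, 9 of the 27457 gene rows of a single-cell count table in which 26938 rows had a count. All 9 were found. Their transcripts, counted as unique molecular identifiers (UMIs, 1 for each captured molecule), numbered from 1514 for Itgb8 and 7895 for Smad3 to 129678 for Tgfb1 and 393148 for Tgfbi.

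TGF-β is secreted in a latent form, held in a shell made from its own propeptide, and acts only once it is released. The integrin of the αv and β8 chains is a main releaser on immune cells. Free ligand binds the type II receptor, which recruits and activates the type I receptor, and SMAD proteins carry the signal to the nucleus; Smad7 blocks the receptor and Ski represses SMAD target genes. In tumors the pathway is known for restraining T cells and for building matrix, and regulatory T cells are a known site of latent TGF-β and its release.

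The tumors were MC38, a colon carcinoma line of C57BL/6 mice, grown under the skin of female hosts of 8 to 12 weeks. Hosts were F1 crosses of C57BL/6J (B6) with a strain of the Collaborative Cross (CC), a panel of inbred mice bred from several founders, or B6 mice. At 75 to 110 mm3 each mouse got a single dose of 200 µg of isotype antibody (2A3) or of antibody against PD-1 (aPD1, 29F.1A12), and tumors were taken 48 h later, frozen and sorted to 90% CD45+ and 10% CD45- cells. Responder strains were CC001/UncJ, CC002/UncJ and CC075/UncJ (10 isotype and 10 aPD1 tumors), and non-responder strains CC036/UncJ, CC079/TauUncJ and CC080/TauUncJ (9 and 9), a class the study took from tumor growth and the sample labels do not give. Another 5 isotype and 5 aPD1 tumors, from CC007/UncJ crosses and B6, had no class. The response class is thus a comparison of 3 strains with 3, and tumors of a strain share their genotype, so p-values over tumors describe these strains.

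The 48 tumors gave 93126 cells in 12 pooled libraries, 53 to 3082 cells and 88816 to 17713491 UMIs a tumor. No hashtag served both treatments, so hashtag and treatment cannot be told apart. Of 87940 distinct barcodes 4990 occurred in more than 1 library, and cells were told apart by library and barcode together. In the deposited data the authors' 27 clusters carry numbers only, although the study's text names several of them. From marker lists, 10 were named macrophages (68059 cells, monocytes included), 8 T/NK cells (11486 cells) and 3 dendritic cells (7817 cells). Cluster 8 was regulatory T-like, with Foxp3, Ctla4, Il2ra, Ikzf2 and Tnfrsf18 among its 10 genes of largest fold, which also include Itgb8. Cluster 12 (535 cells) carried 8 of 9 macrophage and 7 of 8 T/NK markers at 100 CPM, and stayed unnamed. Cluster 19, a macrophage cluster, had a median of 1225 UMIs a cell against 3333.5 over all cells, and was led by Mir99ahg, Lrmda and Psd3. CPM are counts scaled to a total of 1000000. The authors drew the clusters from variable genes of these same counts, and whether these 9 were among them is not given. Levels by cluster are therefore a description with no test.

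On GRCm38.p6 (RefSeq positions of whole genes, exons and introns), Tgfb1 lies on chromosome 7 (25687002 to 25705077), Itgb8 on chromosome 12 (119162803 to 119238276) and Itgav on chromosome 2 (83722303 to 83806917). Tgfbr1 lies on chromosome 4 (47353222 to 47414926), as does Ski (155154075 to 155222535). Tgfbr2 lies on chromosome 9 (116087695 to 116175363), as does Smad3 (63646766 to 63757994). Tgfbi lies on chromosome 13 (56609586 to 56639359). These are protein-coding genes.

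Most transcripts of 8 of the 9 genes lay in macrophages, which held 73.1% of cells and 72.7% of all UMIs, and those of Itgb8 lay in T/NK cells. Macrophages held 94.6% of Tgfbi UMIs, 89.8% of Tgfbr1, 84.7% of Ski, 82.2% of Tgfb1, 74.8% of Tgfbr2, 71.1% of Smad3, 69.7% of Itgav and 63.02% of Smad7. T/NK cells, with 12.3% of cells and 7.49% of UMIs, held 82.8% of Itgb8 UMIs, 21.4% of Smad7 and 18.9% of Itgav. They held 14.4% of Smad3 and 11.3% of Tgfbr2, and only 1.64% of Tgfbr1 and 0.0832% of Tgfbi. Measured tumor by tumor, the median T/NK share of Itgb8 was 83.5% and the median macrophage share of Tgfbi 94.6%.

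**Figure D1:**
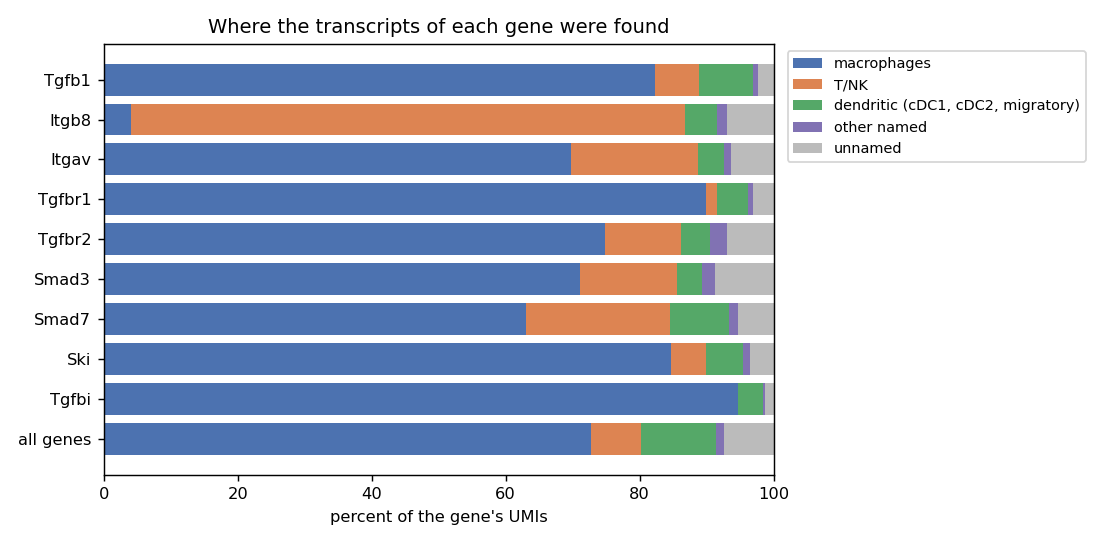
Percent of each gene's UMIs (x axis) found in macrophages, T/NK cells, dendritic cells, the other named classes and the unnamed clusters, pooled over 48 tumors, with the UMIs of all genes as the lowest bar. Itgb8 was 82.8% in T/NK cells, while macrophages held 94.6% of Tgfbi and 89.8% of Tgfbr1.

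Tgfb1, the ligand, was found in every cluster and was highest in cluster 4 of the macrophages, whose leading genes include Ace, Chil3, Plac8 and Vcan. Its level there was 811 CPM from 11148 UMIs. Over the 44 tumors with at least 20 cells of that cluster the lowest value was 482, the median 797 and the highest 1230.2 CPM. T/NK cluster 10, led by Tnfsf11 and Csf2 and with Cd4 among its leading genes, came next with 498 CPM (7 tumors, 337 to 621), followed by macrophage cluster 2, led by Cxcl2 and Il1b, with 396 CPM (47 tumors, 281.5 to 544). The quartile ranges over tumors of cluster 4 and cluster 10 did not overlap, nor did those of clusters 10 and 2. Below these the neighbours in the order were mixed, and of 24 neighbouring pairs over 25 clusters 22 overlapped. Migratory dendritic cells (cluster 11) had 111 CPM, and the lowest level was 71.4 CPM in the unnamed cluster 20.

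Itgb8, the chain that lets αv bind and release latent TGF-β, was highest in regulatory T-like cluster 8. That cluster held 934 of the 1514 Itgb8 UMIs (61.7%) in 2206 of 93126 cells. Its level was 158 CPM, and over 34 tumors the lowest value was 0, the median 161 and the highest 474 CPM. The tumor at 0 was a CC036 isotype tumor of pool 8 with 32 such cells and 154779 UMIs, where a count of 0 allows up to 19.4 CPM. Cluster 10 followed with 45.8 CPM (87 UMIs), then T/NK cluster 1 with 24.9, the unnamed cluster 12 with 18.7 (48 UMIs), cluster 13 with 16.4, cluster 7 with 11.7 and cluster 3, led by Cd8a and Cd8b1, with 8.87 CPM. The quartile ranges of clusters 8 and 10 did not overlap. Macrophages together had 61 Itgb8 UMIs, or 0.203 CPM. Clusters 9, 16, 18, 23 and 24 had none, and at 3 counts as the limit of a count of 0 their depths allow from 0.692 CPM in cluster 9 to 9.31 CPM in cluster 23 (counting error only). Migratory dendritic cells had 57 UMIs (8.59 CPM), against 0.614 CPM in cDC1 and 0.267 CPM in cDC2.

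Itgav, the αv chain that pairs with several β chains, was also highest in cluster 8, with 452 CPM (34 tumors, lowest 161.5, median 494, highest 963). Its order differed from that of Itgb8 lower down. Cluster 15, macrophages with the osteoclast genes Ctsk and Acp5, had 333 CPM in 5 tumors, and the T/NK clusters 3, 13, 10 and 1 had 330.2, 309.8, 299 and 289.5 CPM. Over all macrophages Itgav had 107 CPM and over T/NK cells 281 CPM. The quartile ranges of the leading clusters overlapped, and 23 of 24 neighbouring pairs did. cDC1 and migratory dendritic cells were lowest, with 38.5 and 37.7 CPM. Cluster 8 was thus the 1 cluster with both integrin chains at their highest level.

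**Figure D2:**
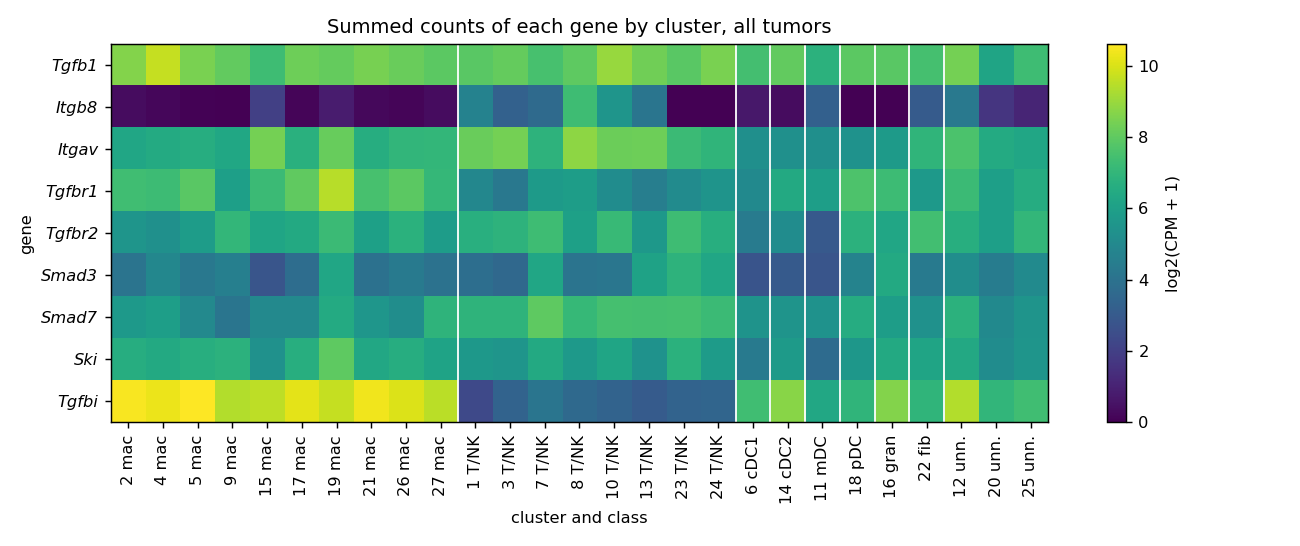
Level of the 9 genes (rows) in the 27 clusters (columns, grouped by class), as log2(CPM + 1) of the counts summed over all tumors. Itgb8 reached 158 CPM in cluster 8 and 0.203 CPM over the macrophages, and Tgfbi was high in the macrophage columns and low in the T/NK columns.

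Both receptors were measured in every cluster, with different orders. Tgfbr1, the type I receptor kinase, had 211 CPM in macrophages and 37.3 CPM in T/NK cells. It was highest in cluster 19, with 716 CPM (45 tumors, lowest 272.5, median 703, highest 1175), and the quartile range there did not overlap that of cluster 17, next with 259 CPM. Clusters 26, 5 and 18 (plasmacytoid dendritic cells) had 247, 238 and 200.3 CPM. The lowest levels were in the T/NK clusters 3 and 13, with 17.7 and 22.0 CPM. Cluster 19 also led for Ski, with low counts per cell. Apart from Plcb1, shared with cluster 4, its leading genes were not among those of the other macrophage clusters. Without cluster 19 the pooled macrophage level was 202 CPM for Tgfbr1, and for Ski it was 92.9 in place of 95.6 CPM.

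Tgfbr2, the type II receptor that binds the ligand, had 73.3 CPM in macrophages and 108 CPM in T/NK cells. Its pooled level was highest in cluster 22, named fibroblast by its markers, with 168 CPM (9 tumors, lowest 60.0, median 124, highest 422), and in T/NK cluster 7, with Skap1 and Lef1 among its leading genes, with 160.4 CPM (40 tumors, lowest 57.7, median 160 and highest 437). Cluster 22 was led by Igfbp7 and Rgs5, with Col1a1, Fabp4 and Acta2 also among its leading genes. By the median over tumors cluster 7 came first, and cluster 22 also lay behind clusters 10 and 19 (141 CPM each). Cluster 23, led by Il23r and Il1rl1 and with Gata3 and Il17a among its leading genes, had 158 CPM from 51 UMIs. Migratory dendritic cells were lowest with 6.78 CPM (45 UMIs), below cDC1 with 20.3 CPM. The quartile ranges of the leading clusters overlapped.

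Smad3, the receptor-activated SMAD among these genes, had 36.7 CPM in T/NK cells and 18.6 CPM in macrophages. Cluster 23 led with 115 CPM from 37 UMIs, with 1 tumor of at least 20 cells, and its value was 48.6 CPM in pools 1 to 6 and 168 CPM in pools 7 to 12. Granulocytic cluster 16 had 87.1 CPM (49 UMIs), cluster 19 had 77.1 and cluster 24, led by Gzmc, Gzma and Ncr1, had 75.9 CPM. Among clusters with at least 5 tumors the highest median over tumors was that of cluster 13 (78.4 CPM, 9 tumors). cDC1 and migratory dendritic cells were lowest, at 5.73 and 5.88 CPM. Of 24 neighbouring pairs 23 overlapped, so the order of Smad3 was loose.

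Smad7, the inhibitory SMAD that is itself a target of the pathway, had 156 CPM in T/NK cells and 47.3 CPM in macrophages. It was highest in T/NK cluster 7, with 253.5 CPM (40 tumors, lowest 40.0, median 222.5, highest 595), the cluster that was also among the highest in Tgfbr2. Clusters 23, 10, 13, 24 and 8 followed with 179.9, 179, 170.2, 149.8 and 135 CPM, all of them T/NK clusters. The lowest level was in cluster 9, macrophages with Lyve1, Folr2 and Cd163, with 16.4 CPM. The quartile ranges of neighbours overlapped in 23 of 24 pairs.

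Ski, a repressor of SMAD target genes, went the other way, with 95.6 CPM in macrophages and 57.2 CPM in T/NK cells. Cluster 19 led with 248 CPM (45 tumors, lowest 81.0, median 239, highest 454), apart in its quartile range from cluster 9, next with 111 CPM. Migratory dendritic cells had the lowest level, 12.1 CPM. That cluster was lowest or second lowest for Tgfbr2, Itgav, Smad3 and Ski, and second lowest for Tgfb1.

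Tgfbi, a secreted matrix protein named for its induction by TGF-β, marked the macrophages. Its level was 1236 CPM there and 10.5 CPM in T/NK cells, and the macrophage marker genes listed for these clusters gave a similar ratio: Tgfbi in T/NK cells stood at 0.853% of its macrophage level, and 8 of the 9 markers at 0.742 to 1.94%. Ly6c2, which T cells also express, stood at 85.8%. The T/NK value of Tgfbi is thus at the level of these markers and is not read as expression, and its source was not tested. Cluster 5, with Ccr2, Clec5a and C3 beside immunoglobulin and haemoglobin genes among its leading genes, was highest with 1560.0 CPM (47 tumors, lowest 951, median 1577, highest 2669), followed by cluster 2 with 1439.7 CPM and cluster 21, led by the interferon-induced genes Ifit3 and Rsad2, with 1316 CPM. Their quartile ranges overlapped. Among dendritic cells cDC2 had 422 CPM, cDC1 163 CPM and migratory cells 80.4 CPM. The cDC2 cluster 14 also carried 8 of the 9 macrophage markers at 100 CPM, and the source of its Tgfbi was not tested.

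For 8 of the 9 genes the 3 genes of most similar pattern are given, taken by Pearson correlation of log2(CPM + 1) over the 27 clusters, among 10955 genes that reached 20 CPM in some cluster. These clusters share libraries and differ in depth, so the values are descriptive. Tgfbi was closest to Csf1r (r = 0.98), Fcgr1 (0.98) and Fcgr2b (0.98), all receptors of macrophages. Itgb8 was closest to Tnfrsf4 (0.91), the costimulatory receptor OX40, followed by Sdcbp2 (0.89) and Nrn1 (0.88). Smad7 was closest to Plcxd2 (0.90), Cd28 (0.88) and Fam107b (0.88). Tgfbr1 was closest to Lair1 (0.89), Apobec1 (0.88) and Arhgap24 (0.88). Itgav was closest to Cdk6 (0.86), Aopep (0.81) and Gas2 (0.80), and Ski to Zswim6 (0.85), March3 (0.85) and Slc36a1 (0.85). Tgfb1 had the weakest nearest gene, Bin2 (0.76), with Itgb2 (0.76) and Tmed5 (0.74). Tgfbr2 was closest to Kiz (0.82), Tmlhe (0.82) and Macf1 (0.79).

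The next question was whether the pathway differs between responder and non-responder strains, taken over both treatments with treatment as a covariate. In macrophages Tgfb1 was lower in responder strains. It was 247, 301 and 438 CPM (lowest, median and highest of 20 tumors) in responder and 309.8, 365 and 525 CPM (18 tumors) in non-responder strains. The tumors overlapped, with 11 of 20 responder tumors below every non-responder tumor, while the strain means over both treatments did not: 297 to 324 CPM in responder and 364 to 399.9 CPM in non-responder strains. The share of all genes whose tumors or strain means lie apart in this way was not counted, here or for the genes below. In isotype tumors alone the strain means overlapped (282 to 379 and 345 to 409 CPM), and in aPD1 tumors alone they lay apart (269.7 to 315 and 365 to 390.5 CPM). The log2 fold change was −0.23 ± 0.07 (SE; edgeR quasi-likelihood test, adjusted p = 0.0271). B6 tumors had 377 CPM ± 70.9 (SD, n = 6) and CC007 tumors 486 ± 102 (n = 4).

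This was the 1 gene of 8 tested that passed in macrophages, where 6.4% of 11646 genes passed (3.9% higher and 2.5% lower in responder strains). When libraries were scaled by size alone, all calls split into 325 higher and 509 lower in place of 454 and 291, and Tgfb1 passed as before (adjusted p = 0.00604). With the counts of each strain summed, 3 libraries against 3, the Tgfb1 difference was −0.19 and did not pass (adjusted p = 0.984). It also missed the threshold without CC001, CC002 or CC080 (−0.24, −0.21 and −0.17, adjusted p = 0.0719, 0.0966 and 0.138), and within pools 1 to 5 (−0.22, adjusted p = 0.0741) and pools 8 to 12 (−0.25, adjusted p = 0.285), with the direction kept each time. Without a filter on low counts the adjusted p was 0.0542.

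Within single macrophage clusters Tgfb1 was lower in responder strains in cluster 21 (−0.41 ± 0.09, edgeR adjusted p = 0.00643) and cluster 2 (−0.30 ± 0.07, edgeR adjusted p = 0.00412). In cluster 2 the mean was 349 CPM ± 52.6 (SD, n = 20) in responder strains against 437 ± 57.2 (n = 18) in the non-responder ones. In cluster 21 it was 274 ± 47.3 (n = 19) and 375 ± 78.7 (n = 17). It did not pass in the other 7 clusters with enough cells, among them cluster 4, where Tgfb1 was highest: 791 ± 144 and 806 ± 141 CPM (n = 18 and 18), a log2 difference of −0.02 (adjusted p = 0.994). Cluster 4 made up 5.60% ± 2.92 (SD, n = 20) of macrophages in responder strains against 8.15% ± 3.99 (n = 18) in the non-responder ones; its part in the pooled difference was not tested.

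**Figure D3:**
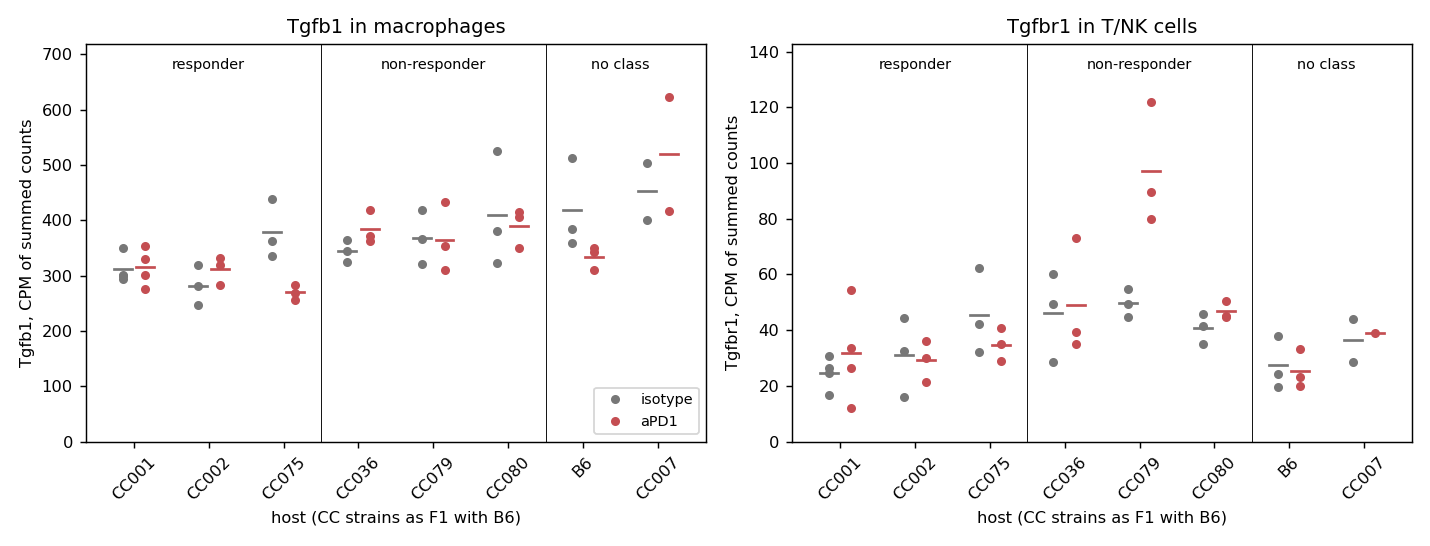
CPM of Tgfb1 in macrophages (left) and Tgfbr1 in T/NK cells (right) for each tumor (points; lines are means), by host strain and treatment. Responder strain means over both treatments were 297 to 324 CPM for Tgfb1 and 28.2 to 40.2 CPM for Tgfbr1, below the non-responder means of 364 to 399.9 and 43.8 to 73.5 CPM, while in isotype tumors alone the strain means overlapped for both genes.

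The other macrophage members did not pass. Itgav differed by −0.17 ± 0.09 (adjusted p = 0.283), with 77.7, 99.3 and 116 CPM (lowest, median, highest) in responder and 86.5, 105 and 239 CPM in non-responder strains. The highest value belonged to a CC080 aPD1 tumor of pool 4, 1 of a pair of tumors that carry the same animal identifier. Strain means of Itgav over both treatments lay apart, at 97.5 to 102 CPM in responder and 105.6 to 133.8 CPM in non-responder strains. They overlapped in isotype tumors alone (96.2 to 108 and 104 to 122 CPM) and in aPD1 tumors alone (90.4 to 106 and 96.1 to 164 CPM). How many of all genes separate in this way was not counted. Smad7 differed by −0.11, Ski by −0.10, Tgfbi by −0.09, Tgfbr1 by −0.06, Tgfbr2 by −0.04 and Smad3 by 0.06. Itgb8, at 61 UMIs, was not tested. The median over the 8 members was −0.09 and over all genes −0.01.

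Of the 41 other listed pathway genes 29 were tested in macrophages, and 3 were higher and 3 lower in responder strains. Fn1, fibronectin, fell from 1359.8 CPM ± 425 (SD, n = 18) in non-responder to 684 ± 229.9 (n = 20) in responder strains, by 0.94 ± 0.15 on the log2 scale (edgeR adjusted p = 7.07e-05). Acvrl1, a type I receptor of the TGF-β family also known as ALK1, was 28.2 ± 6.56 CPM in non-responder and 39.6 ± 5.90 CPM in responder strains, higher by 0.53 ± 0.09 (adjusted p = 0.000254). Itgb1, the β1 integrin chain, was 235 ± 30.8 and 198 ± 21.1 CPM, a change of −0.20 ± 0.05 (adjusted p = 0.0147). Tgfb3, another ligand, was 4.91 ± 5.01 and 7.41 ± 3.43 CPM, higher by 0.85 ± 0.24 (adjusted p = 0.0254). The other 2 calls, named after their values were seen, were Mmp14 (higher) and Timp1 (lower). The median of the 29 was −0.05. The called genes were split evenly by direction. Their alternative fits are not given here, and with counts summed per strain only 3 of all macrophage genes passed.

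Tgfbr1 was lower in T/NK cells of responder strains. It was 12.1, 31.5 and 62.4 CPM (lowest, median and highest of 20 tumors) in responder and 28.6, 47.6 and 122 CPM (18 tumors) in non-responder strains. All T/NK cells together held only 1158 Tgfbr1 UMIs, and T/NK totals went down to 49195 UMIs a tumor. Values of single tumors, and strain means that include them, can therefore rest on few UMIs. Tumors overlapped, with 7 of 20 responder tumors below every non-responder tumor, and strain means over both treatments did not, at 28.2 to 40.2 CPM and 43.8 to 73.5 CPM. The strain means overlapped in isotype tumors (24.7 to 45.6 and 40.8 to 49.6 CPM) and lay apart in aPD1 tumors (29.2 to 34.9 and 46.8 to 97.3 CPM). The log2 fold change was −0.60 ± 0.15 (edgeR adjusted p = 0.0228), the 1 call among 8 members tested, where 2.24% of 6522 genes passed (0.92% higher, 1.32% lower). With libraries scaled by size alone the calls were 46 higher and 114 lower in place of 60 and 86. With counts summed per strain the difference was −0.58 (adjusted p = 0.717). It missed the threshold without CC001, CC002 or CC079 (−0.50, −0.58 and −0.47, adjusted p = 0.0919, 0.0961 and 0.124) and within pools 1 to 5 (−0.80, adjusted p = 0.0579) and pools 8 to 12 (−0.39, adjusted p = 0.333).

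The makeup of the T/NK cells moved with it. Cluster 3, the cluster of lowest Tgfbr1, was 33.03% ± 11.9 (SD, n = 20) of T/NK cells in responder strains against 10.7% ± 7.84 (n = 18) in the non-responder ones. Within cluster 3 Tgfbr1 was 17.4 ± 8.86 and 18.1 ± 14.4 CPM (n = 19 and 6), and within cluster 7 it was 52.8 ± 44.0 and 50.8 ± 27.9 CPM (n = 17 and 15). Within cluster 24 it was 42.2 ± 25.3 and 64.9 ± 31.7 CPM (n = 10 and 11). It was too low to be tested in these 3 clusters. Within cluster 8 it was 52.7 ± 24.7 and 67.6 ± 27.1 CPM (n = 15 and 15), a log2 difference of −0.38 ± 0.22 that did not pass (edgeR adjusted p = 0.635). The 9 macrophage markers summed to 245 to 1003 CPM in responder and 131 to 736 CPM in non-responder T/NK cells, with 6 of 9 higher and 3 lower in responder strains on average and no marker at 0 in either group's mean. Most of this sum was Ly6c2 (means of 342 and 304 CPM), which T cells also express, and without it the other 8 markers summed to 160.5 CPM ± 52.8 (SD, n = 20) and 159.97 ± 67.5 (n = 18). The part of makeup and of macrophage RNA in the Tgfbr1 difference was not tested.

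Itgb8 in T/NK cells was 0, 33.8 and 69.2 CPM (lowest, median, highest; the CC002 isotype tumor at 0 had 88 such cells, which allow up to 12.1 CPM) in responder and 14.3, 66.4 and 148 CPM in non-responder strains. Tumors overlapped, while the strain means over both treatments were 16.9 to 49.2 CPM and 54.2 to 74.7 CPM. In isotype tumors these means overlapped (18.7 to 49.1 and 31.5 to 83.0 CPM), and in aPD1 tumors they did not (15.2 to 49.2 and 66.3 to 81.7 CPM). The log2 difference of −0.95 ± 0.29 did not pass (edgeR adjusted p = 0.0691). It passed with pool as a block (−0.96, adjusted p = 0.0236), with libraries scaled by size alone (−0.99, adjusted p = 0.0475) and without CC001 (−1.40, adjusted p = 0.0134) or CC036 (−1.12, adjusted p = 0.0236). It was smallest among the fits that leave out a strain without CC075 (−0.64, adjusted p = 0.201), and was furthest from the threshold with counts summed per strain (adjusted p = 0.92). Cluster 8, where Itgb8 was concentrated, made up 17.2% ± 9.84 (SD, n = 20) of T/NK cells in responder strains against 31.3% ± 18.5 (n = 18) in the non-responder ones. Within cluster 8 itself Itgb8 was 52.5, 145 and 278 CPM (15 tumors) in responder and 0, 162 and 474 CPM (15 tumors) in non-responder strains. Strain means over both treatments overlapped, and by treatment they lay apart in opposite directions: 202 to 211 CPM in 2 responder strains against 0 to 182 CPM with isotype (CC036 by the 1 tumor at 0), and 65.5 to 151 against 158 to 321 CPM with aPD1. The tumors overlapped in each case, and the difference of −0.31 ± 0.29 did not pass (adjusted p = 0.793), nor did Itgav there (489 and 493.2 CPM, adjusted p = 0.998). In all cells together, where fewer cells of a type and less RNA per cell cannot be told apart, Itgb8 differed by −0.27 ± 0.34 (adjusted p = 0.843).

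**Figure D4:**
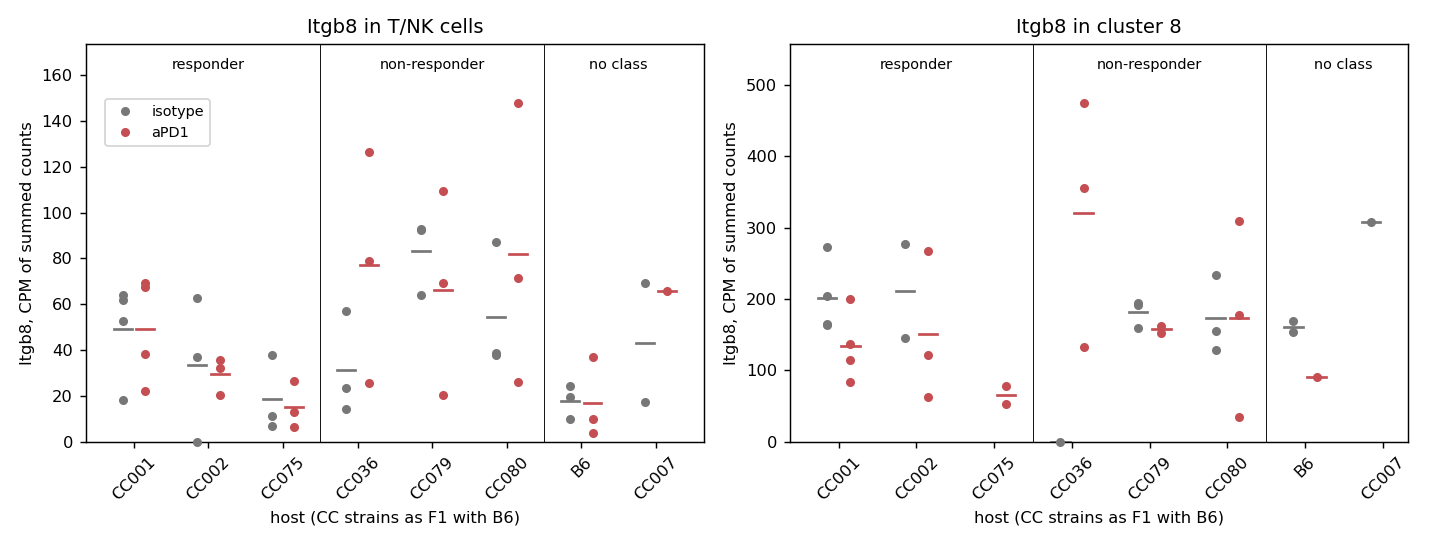
CPM of Itgb8 in all T/NK cells (left) and in regulatory T-like cluster 8 (right) for each tumor with at least 20 such cells (points; lines are means), by host strain and treatment. In T/NK cells the responder strain means over both treatments were 16.9 to 49.2 CPM and the non-responder means 54.2 to 74.7 CPM (overlapping in isotype tumors alone), while in cluster 8 the tumors of the classes overlapped.

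Among the remaining T/NK members, Ski differed by −0.49 ± 0.17 (edgeR adjusted p = 0.128), with 17.2, 44.2 and 81.2 CPM in responder and 21.1, 52.9 and 121 CPM in non-responder strains. It passed without CC075 or CC079 (−0.70 and −0.66) and was smaller without CC036 or CC001 (−0.18 and −0.28), with adjusted p from 0.0258 to 1.00 over its alternatives. Smad7 differed by −0.26, Smad3 by −0.20, Tgfb1 by −0.12, Itgav by 0.09 and Tgfbr2 by 0.01, none past the threshold. The median of the 8 members was −0.23 against 0.00 over all genes. Of 17 other pathway genes tested in T/NK cells 1 passed: Itgae, the CD103 chain that TGF-β is known to induce, was 54.3 CPM ± 47.9 (SD, n = 18) in non-responder and 16.6 ± 18.8 (n = 20) in responder strains, a log2 change of −1.54 ± 0.41 (edgeR adjusted p = 0.0273). Most Itgae UMIs (61.5%) lay in cDC1. The T/NK value is taken over all T/NK cells, whose makeup differed between the classes. The part of makeup in the Itgae difference was not tested, and alternative fits of Itgae are not given here.

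None of the members passed in dendritic cells (7 tested), in cluster 8 (6 tested) or in all cells (9 tested), where 1.23%, 0.142% and 3.09% of genes passed in edgeR. By direction these were 0.72% higher and 0.513% lower in dendritic cells, 0.0355% and 0.107% in cluster 8, and 1.86% and 1.23% in all cells. Their medians were −0.13, −0.29 and −0.10 against 0.00, −0.01 and −0.00 over all genes. Strain means over both treatments lay apart for Tgfb1 in cluster 8, at 236 to 242 CPM in responder and 263 to 283 CPM in non-responder strains. In isotype tumors alone they overlapped (253 to 258 and 239 to 270 CPM), and in aPD1 tumors alone they lay apart (227 to 236 and 253 to 297 CPM). A responder strain had no isotype tumor with enough cells of cluster 8. For Itgb8 in dendritic cells, where it was not tested, strain means over both treatments lay apart the other way from T/NK cells. There they were 1.71 to 3.49 CPM in responder and 0.662 to 1.25 CPM in non-responder strains. In isotype tumors alone they overlapped (0 to 2.03 and 1.30 to 1.35 CPM). Over all tumors migratory cells held 57 Itgb8 UMIs, cDC2 8 and cDC1 6. These means thus lie near the counting limit and are not read as a difference. In dendritic cells Tgfbr1 came closest, with −0.29 ± 0.13 (adjusted p = 0.348). Without CC001 it was −0.55 (adjusted p = 0.0163), without CC075 −0.18 (adjusted p = 0.685) and in pools 1 to 5 alone −0.06 (adjusted p = 0.965). In all cells Tgfb1 came closest, with −0.20 ± 0.06 (adjusted p = 0.0867). It passed with DESeq2 (adjusted p = 0.0405), with library size alone (adjusted p = 0.0341) and without CC075 (adjusted p = 0.0304). It missed the threshold in its other alternatives, with adjusted p up to 0.267 without another strain and of 1.00 with counts summed per strain. The 4 genes called in cluster 8, chosen for naming after their values were seen, were Rps18, Gm10260, H2-Q4 and Birc2. None of them is a pathway gene, and Gm10260 is listed in RefSeq as Rps18-ps6, a pseudogene of Rps18, so reads can be split between the pair. Of the other pathway genes none of 25 passed in dendritic cells and none of 9 in cluster 8. In all cells 4 of 36 passed: Acvrl1 higher, and Fn1, Itgb1 and Timp1 lower in responder strains.

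**Figure D5:**
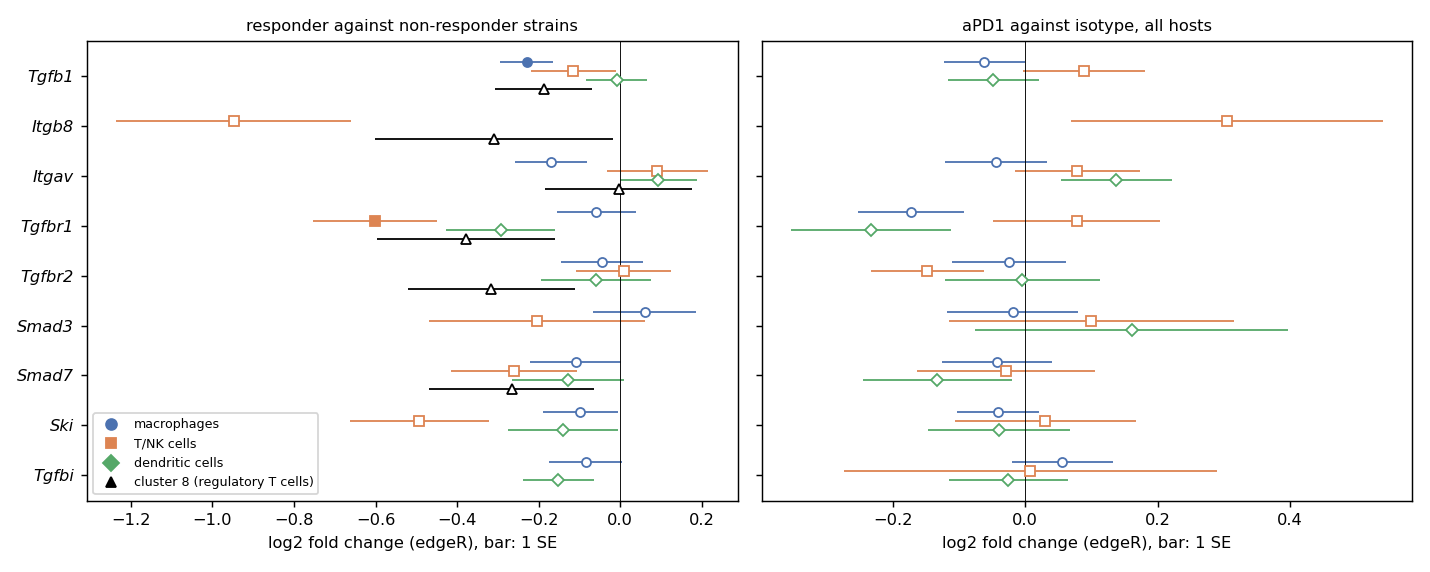
Log2 fold changes (points, edgeR; bars are 1 SE) of the members between response classes (left) and with aPD1 (right) in macrophages, T/NK cells and dendritic cells, with cluster 8 on the left alone; filled points passed an adjusted p of 0.05. The filled points are Tgfb1 in macrophages (−0.23) and Tgfbr1 in T/NK cells (−0.60), and treatment has none.

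Between aPD1 and isotype tumors no member passed the threshold 48 h after the dose in the edgeR test. In macrophages of all 48 tumors Tgfbr1 moved most, with a log2 fold change of −0.17 ± 0.08 (adjusted p = 1.00), from 219 CPM ± 45.4 (SD, n = 24) to 201 ± 58.4 (n = 24), lower in 16 of 24 pairs of the same strain and pool (−0.16 with the pair as a block). The other 7 members tested lay between −0.06 and 0.06. Among them Itgav was lower with aPD1 in 18 of 24 pairs, with a mean within-pair log2 difference of −0.11. Of 12510 macrophage genes 0% passed in edgeR, 385 had an unadjusted p under 0.05, and DESeq2 also called 0. Among T/NK cells (8144 genes) and dendritic cells (9656 genes) 0% passed, with 263 and 422 genes at an unadjusted p under 0.05 and 0 and 1 calls in DESeq2. In dendritic cells Tgfbr1 differed by −0.23 ± 0.12 (edgeR adjusted p = 1.00), lower with aPD1 in 17 of 23 pairs, in 9 of 10 responder pairs and in 6 of 9 non-responder pairs. Smad3 there differed by 0.16 ± 0.24 (adjusted p = 1.00), higher in 15 of 23 pairs, in 9 of 10 responder pairs and in 3 of 9 non-responder pairs. Its counts were low, with 56 UMIs in cDC1, 210 in cDC2 and 39 in migratory cells over all tumors. Whether the change with aPD1 differs between the classes was not tested in dendritic cells. The other 6 members tested there lay between −0.13 and 0.14. Itgb8 in T/NK cells was 41.6 CPM ± 28.1 (SD, n = 24) with isotype and 48.8 ± 39.1 (n = 23) with aPD1, higher in 13 of 23 pairs, a change of 0.30 ± 0.24 (adjusted p = 1.00). Of the 41 other pathway genes none passed among 32 tested in macrophages, 18 in T/NK cells and 25 in dendritic cells.

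Taken by class, the change of Tgfbr1 in macrophages was −0.25 ± 0.12 in responder strains (edgeR adjusted p = 0.394, lower in 8 of 10 pairs) and −0.03 ± 0.12 in non-responder strains (adjusted p = 1.00, lower in 4 of 9 pairs). Responder values were 124, 225 and 282 CPM with isotype and 116, 175 and 257 CPM with aPD1, and non-responder values 143, 219 and 286 CPM and 158, 204 and 318 CPM. The groups overlapped. The difference between these effects was −0.19 ± 0.19 (interaction, adjusted p = 0.92). For Tgfb1 the changes were −0.06 ± 0.09 and 0.02 ± 0.10, and their difference −0.07 ± 0.13 (adjusted p = 0.984). The other 6 members had interactions between −0.07 and 0.15, with none past the threshold. In responder strains 0.00847% of 11800 genes passed, a single gene, Apol7c, named after its value was seen, while DESeq2 called 22. In non-responder strains 0% of 11899 genes passed and for the interaction 0% of 11873, with 176 and 680 genes at an unadjusted p under 0.05 and 0 and 1 calls in DESeq2.

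The last test asked whether the 8 host genotypes differed in any way. In the macrophage test across all genotypes 51.7% of 12510 genes passed, so a call here sets a gene little apart, and 4 of 8 members passed: Ski (adjusted p = 0.000534), Tgfbi (0.00186), Tgfb1 (0.0052) and Smad7 (0.0117), by edgeR. Smad3 lay at the threshold (0.0501), while Tgfbr1, Tgfbr2 and Itgav had 0.189, 0.289 and 0.175. Strain means of Tgfbi ran from 956 CPM ± 245 (SD, n = 8) in CC001 to 1647 ± 374 (n = 6) in B6 hosts. Those of Ski ran from 81.0 ± 10.2 (n = 6) in CC079 to 127 ± 24.9 (n = 6) in CC036. Tgfb1 was lowest in CC002 (297 ± 32.2, n = 6) and highest in CC007 (486 ± 102, n = 4), and Smad7 lowest in CC002 (38.5 ± 4.86, n = 6) and highest in CC036 (64.5 ± 12.6, n = 6). The tumors of the lowest and highest strain did not overlap for Tgfb1, whose CC002 tumors reached 333 CPM and whose CC007 tumors began at 401 CPM. Both strains were picked as the extremes from these same values, so their separation is a description and no test. The CC007 set includes an aPD1 tumor of only 53 cells. Of the 32 other pathway genes tested 22 passed, the smallest p-values being those of Ldlrad4, Pmepa1, Acvrl1 and Itgb1. Every pool held 2 genotypes, and each genotype was sequenced in 2 to 4 pools. With pool as a block, 1623 of the 12510 genes passed and none of the 8 members did: Tgfbi had an adjusted p of 0.116, Tgfb1 0.13, Ski 0.232 and Smad7 0.576 (edgeR, a fit added after the values were seen).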

How the data were processed

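Single-cell RNA-seq was read from 12 pooled libraries of MC38 tumors, each mouse tagged with a hashtag antibody. Per the labels and the study's methods, the authors aligned reads to mm10 (GRCm38) with Cell Ranger, removed cells with high mitochondrial or ribosomal shares, clustered the rest with Seurat 5.0.1, and deposited raw UMI counts per gene and cell with a table of cluster, strain, treatment and library for each cell. A doublet step is not given in the sources used here and no doublet caller was run.

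The deposited counts were summed by cluster and by tumor (dataset, strain and treatment), and a tumor entered a cell class with at least 20 cells of it. A class name needed at least 3 markers and 50% of its list at 100 CPM. Where several lists qualified, the list furthest above its mean over clusters on the log2 scale gave the name. A cluster stayed unnamed where the T/NK and macrophage lists, or the B cell and MC38 lists, both qualified. The members and lists were chosen with earlier results of these data known. CPM used the class's total, and coordinates came from RefSeq. Tests used edgeR 4.0.16 (R 4.3.3; TMM scaling, filterByExpr, quasi-likelihood fit) across all genes, with Benjamini-Hochberg adjustment and a threshold of 0.05. Class tests had treatment as a covariate, and treatment tests had host strain. Alternatives were DESeq2 1.42.0, library size alone, no filter, 50 cells, counts summed per strain, pool as a block, subsets of pools and leaving out each strain. Leaving out cluster 19, adding cluster 12, dropping tumors under 500 cells, pairing the tumors of a strain and pool, and a pool term in the genotype test were chosen after seeing the data. Besides the members, up to 4 other pathway genes were named per comparison, smallest p first, and a pair of further calls after their values were seen. In counts simulated for the macrophage class comparison (11646 genes, 200 changed), 91% of genes changed by 1 on the log2 scale and 100% of those changed by 2 were recovered, for the macrophage interaction (11873 genes) 76% and 94%, and for genotype (12510 genes) 84% and 97%. Of the simulated calls 4.5%, 4.49% and 5.73% were false. Tumors were simulated independently, without strain or pool effects, and the planted changes exceeded the differences called for members. These shares thus do not measure the power or error of the tests on the real tumors. Tumors are the replicates, which share a genotype within a strain, and counting limits cover counting error only. Smad7's position is not given here. The genes of most similar pattern to Smad3 are not reported here.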

Additional observations from a re-analysis of the deposited data

Results flagged for a closer look

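In 20 of 180 groups of tumors (1 gene, 1 cell class, 1 response class and 1 treatment) the highest or lowest tumor lay further from its nearest neighbour than a Dixon limit. Chance passes that limit in about 1 of 20 groups of independent, normally distributed values. Here the values were CPM off the log scale, and groups shared cells, since all cells include the other classes. The 20 of 180 is thus not set against that rate. None of the flagged values was left out of a test.

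In macrophages Tgfb1 reached 525 CPM in a CC080 isotype tumor of pool 11 (the nearest tumor had 418), and Itgav reached 239 CPM in a CC080 aPD1 tumor of pool 4, the tumor that shares its animal identifier with another. The same tumor stood apart for Itgav in all cells, with 219 CPM. The macrophage Itgb8 values of 1.07 CPM (CC001 isotype, pool 4) and 0.959 CPM (CC080 aPD1, pool 3) rested on 8 and 6 UMIs.

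In T/NK cells Tgfb1 reached 671 CPM in a CC079 aPD1 tumor of pool 1, from 33 UMIs, 379 CPM in a CC075 aPD1 tumor of pool 9 and 384 CPM in a CC036 isotype tumor of pool 8. Tgfbi reached 26.8 CPM there in a CC036 isotype tumor of pool 9 (8 UMIs), and Smad7 247 CPM in a CC075 isotype tumor of pool 9. In cluster 8 Tgfbi was 79.5 CPM in a CC002 aPD1 tumor of pool 12 (29 UMIs).

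In dendritic cells Tgfb1 was lowest in a CC075 aPD1 tumor of pool 10, with 146 CPM. Smad3 was 26.3 CPM in a CC075 isotype tumor of pool 9 (4 UMIs) and 14.7 CPM in a CC036 aPD1 tumor of pool 9, and Ski 76.2 CPM in a CC036 aPD1 tumor of pool 8.

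Over all cells, a CC036 isotype tumor of pool 8 stood apart for Itgav (184.5 CPM), Smad3 (43.4 CPM) and Smad7 (133 CPM). In pool 9 the CC075 isotype tumor stood apart for Smad3 (42.2 CPM) and the CC075 aPD1 tumor for Smad7 (106 CPM).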

How the results depend on the processing

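The members' tests gave 102 values and 1665 alternatives, of which 1626 stayed on the same side of the threshold (161 with another sign, neither past it), 25 lost a call, 14 gained one and 0 reversed. Most of the 102 values were not calls, so the 1626 says little about the calls. A call could be lost only for Tgfb1 in macrophages (26 alternatives), Tgfbr1 in T/NK cells (18) and the 4 genotype calls (8 each), and the 25 losses fell among these. The isotype and aPD1 tumors of 1 strain in 1 pool were also fitted as pairs, a replicate block added after seeing the data. With this pairing the counts of genes called were 1 for treatment in T/NK cells (0 unpaired), 3 for treatment in responder macrophages (1 unpaired) and 1 for the macrophage interaction (0 unpaired), and no member's call changed. The genotype test gave 1623 genes with pool as a block, against 6464, and lost its 4 member calls. The causes were not tested, except that summing per strain leaves 6 libraries. Counts of genes called in the macrophage class comparison were 3 summed per strain, 263 in pools 1 to 5 and 395 in pools 8 to 12, and within clusters 17, 19, 2, 21, 27, 4, 5 and 9 they were 103, 10, 359, 96, 40, 19, 349 and 5, against 745 (cluster 26 was fitted too and is not listed). In T/NK cells they were 3 per strain, 307 unfiltered, 346 with pool as a block, 88 and 35 in the pool sets, and 1, 19, 5 and 4 within clusters 24, 3, 7 and 8, against 146. In dendritic cells they were 1 per strain, 176 with DESeq2, 205 unfiltered, 341 with the pool block, and 49 and 32 in the pool sets, against 101. In cluster 8 they were 1 per strain, 86 unfiltered, 12 with the pool block, 12 and 1 in the pool sets and 2 without the tumors that share an animal, against 4. In all cells they were 2 per strain and 120 and 154 in the pool sets, against 407. For treatment, T/NK cells gave 24 unfiltered and 1 with the pool block, and dendritic cells 1 with DESeq2 and 58 unfiltered, against 0. In responder macrophages the counts were 22 with DESeq2, 9 unfiltered, 3 with the pool block, 0 in pools 1 to 6 and 2 in pools 7 to 12, against 1. The macrophage interaction gave 1 with DESeq2 and 1 with the pool block, and that of cluster 8 gave 50 unfiltered, against 0. Leaving out 1 strain gave 590 to 899 calls in macrophages, 79 (without CC002) to 284 (without CC080) in T/NK cells, 63 (without CC002) to 377 (without CC001) in dendritic cells, 3 to 9 (without CC036) in cluster 8 and 249 (without CC079) to 583 in all cells. It gave 0 to 1 in each of treatment in dendritic cells, treatment in responder macrophages and the cluster 8 interaction. Smad3 in cluster 23 (115 CPM pooled, 37 UMIs) was 148 in its 1 tumor of at least 20 cells, 48.6 in pools 1 to 6 and 168 in pools 7 to 12.

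Itgb8 and Smad3 had 1514 and 7895 UMIs in all, which limits their values in single tumors, and the response class rests on 3 strains a side.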

Other observations

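Several other genes of the pathway had their highest level in cluster 22, which carried 7 of 7 fibroblast markers. Its leading genes also hold Rgs5, Fabp4 and Acta2, which are not on that list. Whether it holds other stromal cells was not tested, so its levels are those of the cluster and not of fibroblasts alone. In cluster 22 lay 94.6% of the UMIs of the collagen Col1a1, 94.1% of those of Ccn2 (connective tissue growth factor) and 90.8% of those of Bgn (biglycan, which binds TGF-β). That cluster also had the highest level of Tgfb2, Ltbp1 and Ltbp4, a ligand and a pair of latent TGF-β binding proteins, and of Lrrc32, the GARP protein that holds latent TGF-β on cells (45.2 CPM, 38.7% of its UMIs). Nrros, which holds latent TGF-β on myeloid cells, was highest in macrophage cluster 9 (227 CPM), and Pmepa1, a feedback inhibitor, in macrophage cluster 26 (446 CPM, 41.4% of its UMIs). These genes were singled out after their values were seen, and the clusters were drawn from the same counts.

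A comparison added after the values were seen asked whether the change with aPD1 in cluster 8 differed between response classes. Itgb8 averaged 205 CPM ± 58.3 (SD, n = 6) with isotype and 124 ± 69.9 (n = 9) with aPD1 in responder strains, and 152 ± 75.1 (n = 7) and 225 ± 143 (n = 8) in non-responder strains. The interaction was −1.18 ± 0.56 on the log2 scale (edgeR, unadjusted p = 0.0425, adjusted p = 0.58) and did not pass, with adjusted p from 0.376 to 0.998 over its alternatives. Over pairs of the same strain and pool, Itgb8 was lower with aPD1 in 4 of 6 responder pairs and in 4 of 6 non-responder pairs. For Itgav the means were 569.8 and 435 CPM in responder and 402 and 573 CPM in non-responder strains, and the interaction of −0.77 ± 0.34 did not pass either (edgeR adjusted p = 0.58). Smad7 had an interaction of −0.96 ± 0.38 (edgeR adjusted p = 0.577). Of 3233 genes 0% passed in edgeR, 271 had an unadjusted p under 0.05, and DESeq2 called 0.

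Tgfbr1 in T/NK cells was 45.5 CPM ± 9.60 (SD, n = 9) with isotype and 64.4 ± 29.0 (n = 9) with aPD1 in non-responder strains, higher in 7 of 9 pairs, and 32.9 ± 14.0 and 31.9 ± 11.4 (n = 10 each) in responder strains, higher in 5 of 10. The difference between the classes in this change was not tested.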
